A study of Homo sapiens with 6 samples.

Results

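The HNRNP and SRSF genes encode the hnRNP and SR proteins, the classical regulators of pre-mRNA splicing. The members described here are the protein-coding genes of the deposited count table whose symbol starts with HNRNP or SRSF followed by a letter or number, without hyphenated names. This gave 38 of 62710 genes, 26 HNRNP and 12 SRSF. The table holds 136 pseudogenes and 3 other entries with these names, which were left out. Of the 38 members, 21 HNRNP and 11 SRSF genes passed the filter on low counts (filterByExpr of edgeR) and were among the 16753 genes tested.

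HCT116, a line from a human colon cancer, was sequenced. In the sh-IGF2BP3 group (3 libraries) the cells carried an shRNA against IGF2BP3, an RNA-binding protein that stabilizes its target mRNAs, and in the sh-NC group (3 libraries) a scrambled control. Both were delivered by lentivirus and both lines were stably selected with puromycin, without further treatment in the labels, so the comparison rests on 1 shRNA sequence and 1 selected line of each kind. The labels number the libraries 1 to 3 within each group but do not say that they came from separate cultures, so the p-values measure only the spread between these libraries, which may be technical.

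SR proteins bind exonic sequence through RNA recognition motifs (RRMs) and recruit the spliceosome through a domain rich in arginine and serine, and by this they mostly promote exon inclusion. The hnRNP proteins coat nascent transcripts and often repress nearby splice sites, so that the balance between both families at an exon is known to shape alternative splicing. Many members control their own mRNA through exons that carry premature stop codons and lead to nonsense-mediated decay. Counts per gene, as deposited, sum all transcripts of a gene and do not show such isoforms.

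The designed sequences are shown because they define both groups, with capitals marking the bases that pair with, or form, the seed of the guide strand (guide positions 2 to 8, counted from its 5′ end).
sh-IGF2BP3 target strand: ggctcagggaaGAATTTAt
sh-IGF2BP3 guide strand: aTAAATTCttccctgagcc
sh-NC target strand: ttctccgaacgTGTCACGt
sh-NC guide strand: aCGTGACAcgttcggagaa
None of the 38 members held the full 19-base sh-IGF2BP3 sequence in its longest GENCODE 29 transcript. The 7 letters GAATTTA, which pair with the sh-IGF2BP3 seed and were searched on the transcript strand, occurred in the longest transcript of 15 of the 32 tested members (46.9%), against 3402 of 13118 tested protein-coding genes (25.9%). The median length of the longest transcript was 4018 bases over the 32 members and 3695 bases over the coding genes. By family the letters were found in 11 of 21 HNRNP and 4 of 11 SRSF transcripts, with the highest number, 4 occurrences, in HNRNPU. The sh-NC seed match, TGTCACG, occurred in 2 of the 32 (SRSF4 and SRSF7) and in 7.54% of the coding genes. Transcripts with the sh-IGF2BP3 letters were also poorer in GC, with a median GC content of 39.6% over members with a match and 43.3% over those without. The median log2 fold change between the groups was 0.10 over the 15 members with a match and 0.31 over the 17 without. Over all coding genes tested, the same medians were −0.24 and 0.13. With each library's trends with GC content and gene length removed by splines, the medians became 0.42 and 0.40 over the members and 0.0018 and 0.046 over the coding genes. A match of letters does not show a bound site, and the part of the seed in any difference was not tested.

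The libraries held 16146718 to 23576469 counts. IGF2BP3 itself was lower in every sh-IGF2BP3 library (52.3 to 60.2 CPM, counts scaled to the TMM-normalized library total) than in every sh-NC library (70.3 to 90.3 CPM), with a log2 fold change of −0.54 (SE 0.181, edgeR adjusted p = 0.126, exact two-sided permutation p = 0.1, the smallest that 3 against 3 allows). With the GC and length trends removed it was −0.22 and the groups overlapped, and without sh-NC 1 as well it was −0.032. Libraries of 1 group differed by more than counting noise, from 19.8 times the chi-square expected for counting alone (sh-NC 2 and sh-NC 3) to 61.5 times (sh-NC 1 and sh-NC 3). Of 7 intestinal epithelial markers, 6 were detected in every library and VIL1 had 9 counts in all, with summed levels of 2217 to 3549 CPM in sh-NC and 3040 to 3954 CPM in sh-IGF2BP3. None was called by edgeR. At an unadjusted p under 0.05, 3 of the 6 tested were higher, among them KRT19 (log2 fold change 0.80) and CDX2 (0.59), and CDH1 was lower (−0.47). Over all genes tested, 13.6% were higher and 8.54% lower at that threshold. With the GC and length trends removed, described further on, no epithelial marker was higher at that threshold and CDH1 was still lower at −0.40. KRT19 was then at 0.28 and CDX2 at 0.30. Over all genes tested, 6.86% were higher and 3.59% lower in that setting. Of 8 markers of other cells, LUM was at 0, PTPRC, CD3E, CD68 and COL3A1 had 19 counts or fewer in all 6 libraries, and COL1A1 made up most of the sum, which ranged from 29.1 to 56.5 CPM in sh-NC and from 31.1 to 62.5 CPM in sh-IGF2BP3. Of the 3 tested, COL1A1 (log2 fold change 0.23), PECAM1 (−0.37) and VWF (−0.16), none had an unadjusted p under 0.05 by edgeR. The part of these markers in the results was not tested. In such bulk samples, fewer cells of a type and less RNA per cell cannot be told apart.

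To ask whether the splicing regulators moved with IGF2BP3 knockdown, the groups were compared by the edgeR quasi-likelihood test on the whole count table, and a gene was called at a fold change above 1.5 and a Benjamini-Hochberg adjusted p under 0.05. No HNRNP or SRSF gene was called, and neither was any other gene (0% of 16753 higher and 0% lower). At an unadjusted p under 0.05, 3 of 21 HNRNP genes (HNRNPAB, HNRNPA0 and HNRNPL) and 3 of 11 SRSF genes (SRSF9, SRSF2 and SRSF3) were higher in sh-IGF2BP3 and none was lower, while over all genes tested 13.6% were higher and 8.54% lower. The HNRNP count is close to that background. Levels of the groups did not overlap for 1 member in each direction, HNRNPAB (higher) and SRSF11 (lower), against 13.2% of all genes higher and 11% lower. The log2 fold change was above 0 for 19 of 21 HNRNP and 8 of 11 SRSF genes, against 49% of all genes tested, and below 0 for the other 2 HNRNP and 3 SRSF genes, against 51%. That tally moved with the scaling, to 15 HNRNP and 7 SRSF genes above 0 with upper-quartile normalization (44.6% of all genes) and to 13 and 7 by limma on log2(FPKM + 1) (46.7% of its 13046 genes). Its median was 0.20 over the HNRNP genes (range −0.23 to 0.95) and 0.27 over the SRSF genes (range −0.23 to 0.66), beside −0.014 over all genes.

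Other tools and library sets gave different counts. DESeq2 with the same thresholds called 1 HNRNP gene, HNRNPAB (adjusted p = 0.00949), and no SRSF gene. At an unadjusted p under 0.05, 3 HNRNP and 3 SRSF genes were higher by DESeq2, beside 2390 of 36334 genes higher and 1433 lower. Of the 13087 genes with an adjusted p, DESeq2 called 4.29% higher and 1.05% lower. Without sh-NC 1, edgeR called 5 HNRNP genes (HNRNPAB, HNRNPA0, HNRNPL, HNRNPM and HNRNPF) and 2 SRSF genes (SRSF9 and SRSF3) higher and none lower, beside 10% of 17379 genes higher and 5.67% lower. Leaving out any of the other 5 libraries gave no called member. With no filter on low counts, edgeR on all 6 libraries called HNRNPAB and HNRNPA0 higher and no member lower, beside 1.89% of 36335 genes higher and 0.413% lower.

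**Figure D1:**
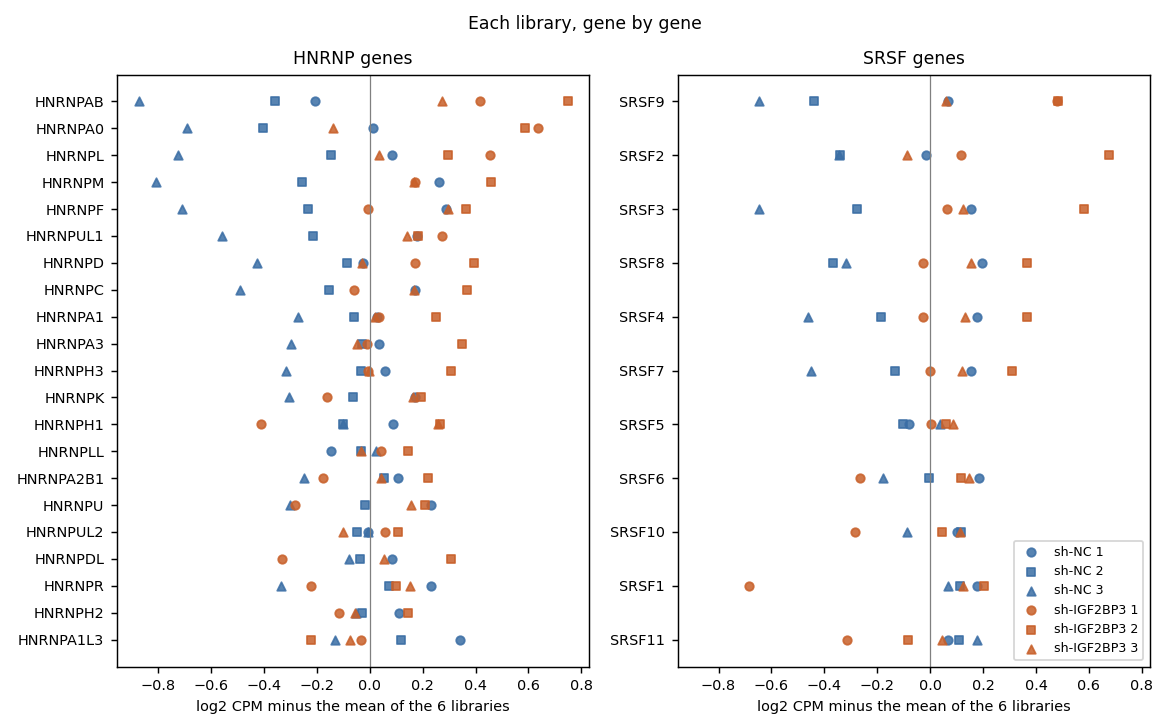
Level of each tested member in each library as log2 CPM minus the mean of the 6 libraries, HNRNP genes on the left and SRSF genes on the right, ordered by log2 fold change. sh-NC 3 (blue triangles) is the lowest library for 20 of the 32 members and sh-IGF2BP3 2 (orange squares) the highest for 22, and the colours separate for HNRNPAB and SRSF11 alone.

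The members differed between libraries in a shared way. The library sh-NC 3 was the lowest of the 6 for 15 of 21 HNRNP and 5 of 11 SRSF genes, whereas over all genes tested it was the lowest for 24.1%. At the other end, sh-IGF2BP3 2 was the highest for 15 HNRNP and 7 SRSF genes, against 17.7% of all genes tested. Taking log2 CPM relative to the 6-library mean, the median HNRNP gene stood at 0.089, −0.058 and −0.30 in sh-NC 1 to 3 and −0.0075, 0.27 and 0.042 in sh-IGF2BP3 1 to 3. For the SRSF genes it was 0.15, −0.13 and −0.32 in sh-NC 1 to 3 and −0.026, 0.31 and 0.12 in sh-IGF2BP3 1 to 3. In both families sh-NC 1 lay above sh-IGF2BP3 1 and sh-IGF2BP3 3, so the groups overlapped. Without sh-NC 3 the median log2 fold change was 0.084 over HNRNP and 0.12 over SRSF genes, and without sh-IGF2BP3 2 it was 0.068 and 0.19.

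**Figure D2:**
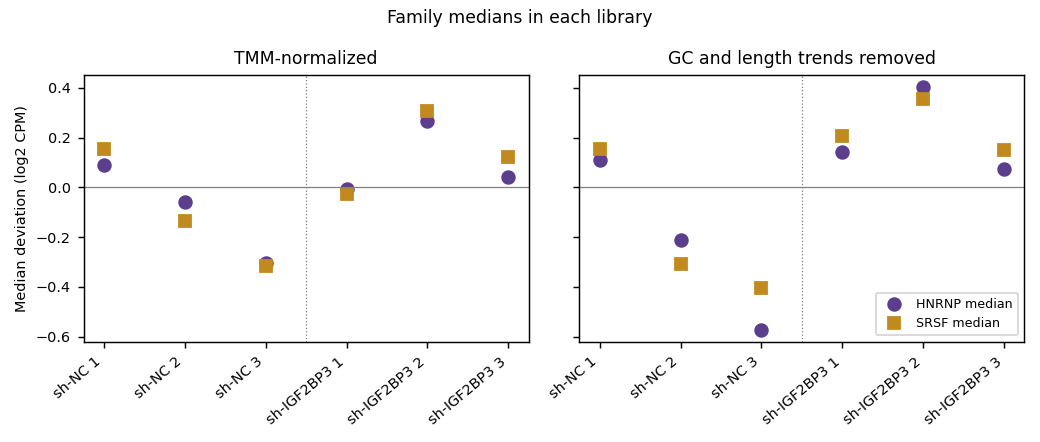
Median over the 21 HNRNP genes (circles) and the 11 SRSF genes (squares) of log2 CPM relative to the 6-library mean, for each library, after TMM normalization (left) and with the GC and length trends removed (right). In both panels sh-NC 1 lies within the range of the sh-IGF2BP3 libraries, while sh-NC 2 and sh-NC 3 lie below 0.

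Among the 8 tested genes of the A/B type, which carry a pair of RRMs and a glycine-rich tail, 7 had a log2 fold change above 0. HNRNPAB (ENSG00000197451, chr5:178204533-178211163, plus strand, GRCh38) encodes an A/B protein that binds RNA and single-stranded DNA. It stood at 250.1, 225 and 157 CPM in sh-NC 1 to 3 and 385, 485 and 349 CPM in sh-IGF2BP3 1 to 3. All sh-IGF2BP3 libraries lay above all sh-NC libraries, and the log2 fold change of 0.95 (SE 0.215, adjusted p = 0.103) was the highest of the 32 members. The exact permutation p for this gene was 0.1, the smallest possible here. HNRNPA0 (ENSG00000177733, chr5:137745651-137754363, minus strand), a single-exon gene whose protein binds AU-rich mRNA, was at 241, 181 and 148 CPM in sh-NC 1 to 3 and 371, 359.9 and 217 CPM in sh-IGF2BP3 1 to 3. Here sh-IGF2BP3 3 lay below sh-NC 1, so the groups overlapped, with a log2 fold change of 0.73 (SE 0.237, adjusted p = 0.123). Without sh-NC 1 the edgeR adjusted p was 0.00493 for HNRNPAB and 0.0126 for HNRNPA0, in a setting that called 10% of all genes higher. Without sh-NC 3 it was 0.285 for HNRNPAB and 0.404 for HNRNPA0.

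HNRNPA1, the best-known repressor of exons in the family, was at 1548, 1460 and 1261 CPM in sh-NC 1 to 3 and 1558, 1808 and 1540 CPM in sh-IGF2BP3 1 to 3. The library sh-IGF2BP3 2 was the highest and sh-NC 3 the lowest, while sh-NC 1 lay between sh-IGF2BP3 3 and sh-IGF2BP3 1, with a log2 fold change of 0.20 (SE 0.192, adjusted p = 0.557). HNRNPA2B1, its close relative that also acts in RNA transport, was at 1867, 1800 and 1458 CPM in sh-NC 1 to 3 and 1531, 2020 and 1783 CPM in sh-IGF2BP3 1 to 3. These groups overlapped widely (log2 fold change 0.057, SE 0.200). Counts of HNRNPA2B1 per 100 counts of HNRNPA1 were 121, 123 and 116 in sh-NC 1 to 3 and 98.3, 112 and 116 in sh-IGF2BP3 1 to 3, with sh-IGF2BP3 1 the lowest and sh-IGF2BP3 3 just above sh-NC 3. HNRNPA3 was at 393, 376 and 312 CPM in sh-NC 1 to 3 and 381, 488 and 372 CPM in sh-IGF2BP3 1 to 3, overlapping (log2 fold change 0.20, SE 0.194).

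HNRNPD, also known as AUF1, binds AU-rich elements and steers mRNA decay, and HNRNPDL is its neighbour on chromosome 4 and its nearest relative. HNRNPD was at 362, 347 and 274 CPM in sh-NC 1 to 3 and 414, 483 and 361 CPM in sh-IGF2BP3 1 to 3. The library sh-IGF2BP3 3 overlapped sh-NC, since it differed by under 1 CPM from sh-NC 1, with a log2 fold change of 0.36 (SE 0.197, adjusted p = 0.298). HNRNPDL was at 304, 279 and 272 CPM in sh-NC 1 to 3 and 228, 354 and 298 CPM in sh-IGF2BP3 1 to 3, with its lowest and its highest level both in sh-IGF2BP3 (log2 fold change 0.043, SE 0.199). Counts of HNRNPDL per 100 of HNRNPD were 83.9, 80.4 and 99.2 in sh-NC 1 to 3 and 55.0, 73.4 and 82.5 in sh-IGF2BP3 1 to 3, and sh-IGF2BP3 3 lay between sh-NC 2 and sh-NC 1. HNRNPA1L3, an HNRNPA1-like gene, was low at 4.51 to 6.66 CPM, with a log2 fold change of −0.23 (SE 0.282). How its reads were separated from those of HNRNPA1 is not known.

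HNRNPC binds uridine tracts and packages nascent pre-mRNA. It was at 1056, 844 and 668 CPM in sh-NC 1 to 3 and 901, 1210 and 1054 CPM in sh-IGF2BP3 1 to 3. The groups overlapped through sh-NC 1, which was as high as sh-IGF2BP3 3, with a log2 fold change of 0.30 (SE 0.214, adjusted p = 0.414). HNRNPK, a KH-domain protein that binds C-rich RNA, was at 969.5, 825 and 698 CPM in sh-NC 1 to 3 and 771, 987 and 964 CPM in sh-IGF2BP3 1 to 3, with sh-IGF2BP3 1 between sh-NC 3 and sh-NC 2 (log2 fold change 0.13, SE 0.201). Of the F/H genes, whose proteins bind runs of G, HNRNPF was at 673, 469 and 337 CPM in sh-NC 1 to 3 and 549, 709 and 677 CPM in sh-IGF2BP3 1 to 3. Here sh-NC 1 was higher than sh-IGF2BP3 1 while sh-NC 3 was the lowest library, with a log2 fold change of 0.39 (SE 0.236, adjusted p = 0.345). HNRNPH1, its paralog, was at 1052, 923 and 921 CPM in sh-NC 1 to 3 and 743, 1190 and 1184 CPM in sh-IGF2BP3 1 to 3, where the library sh-IGF2BP3 1 stood below the other 5 (log2 fold change 0.11, SE 0.214). HNRNPH2 was at 89.0, 80.7 and 79.5 CPM in sh-NC 1 to 3 and 76.0, 91.1 and 79.4 CPM in sh-IGF2BP3 1 to 3, among the nearest to no change (log2 fold change −0.016, SE 0.176). HNRNPH3 ranged from 147 to 226 CPM with overlapping groups (log2 fold change 0.20, SE 0.189).

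HNRNPL (ENSG00000104824, chr19:38836370-38852347, minus strand) binds CA repeats and regulates exons that contain them. It was at 311, 265 and 178 CPM in sh-NC 1 to 3 and 402, 360.2 and 301 CPM in sh-IGF2BP3 1 to 3. The library sh-NC 3 was low and sh-IGF2BP3 3 lay just below sh-NC 1, with a log2 fold change of 0.50 (SE 0.220, adjusted p = 0.203). HNRNPLL, its paralog known for CD45 splicing in lymphocytes, was at 43.0, 46.5 and 48.4 CPM in sh-NC 1 to 3 and 48.9, 52.5 and 46.5 CPM in sh-IGF2BP3 1 to 3, with little spread (log2 fold change 0.10, SE 0.178). HNRNPM binds GU-rich RNA and acts on exons in epithelial plasticity. It was at 598, 417 and 284 CPM in sh-NC 1 to 3 and 561, 685 and 559 CPM in sh-IGF2BP3 1 to 3. Here sh-NC 1 was above both sh-IGF2BP3 1 and 3, with a log2 fold change of 0.47 (SE 0.241, adjusted p = 0.259). HNRNPR, the relative of SYNCRIP, was at 472, 423 and 319 CPM in sh-NC 1 to 3 and 344, 431 and 447 CPM in sh-IGF2BP3 1 to 3, overlapping (log2 fold change 0.0092, SE 0.204).

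HNRNPU, also called scaffold attachment factor A, binds chromatin-associated RNA. It was at 1187, 999 and 820.2 CPM in sh-NC 1 to 3 and 831, 1169 and 1127 CPM in sh-IGF2BP3 1 to 3. The levels of sh-IGF2BP3 lay within those of sh-NC (log2 fold change 0.057, SE 0.211). HNRNPUL1 was at 441, 335 and 264 CPM in sh-NC 1 to 3 and 469.8, 441 and 428 CPM in sh-IGF2BP3 1 to 3, with sh-NC 1 inside the narrow range of sh-IGF2BP3 and the other sh-NC libraries below it (log2 fold change 0.36, SE 0.207, adjusted p = 0.311). HNRNPUL2 was at 45.1, 43.8 and 45.1 CPM in sh-NC 1 to 3 and 47.2, 48.8 and 42.2 CPM in sh-IGF2BP3 1 to 3, with overlapping groups (log2 fold change 0.044, SE 0.177).

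The 4 genes grouped here as SR proteins with 1 RRM (SRSF2, SRSF3, SRSF7 and SRSF8) had log2 fold changes above 0. This grouping is not by RRM number alone. It leaves out the SR-like SRSF10 (−0.078) and SRSF11 (−0.23), so it ties no direction to the number of RRMs. SRSF2 (ENSG00000161547, chr17:76734115-76737333, minus strand), which binds exonic enhancers and marks nuclear speckles, was at 237, 189 and 189 CPM in sh-NC 1 to 3 and 259.8, 383 and 226 CPM in sh-IGF2BP3 1 to 3. The library sh-IGF2BP3 2 was far above the rest and sh-IGF2BP3 3 lay below sh-NC 1, with a log2 fold change of 0.50 (SE 0.217, adjusted p = 0.196). SRSF3 (ENSG00000112081, chr6:36594353-36605600, plus strand), a small SR protein that also links splicing to mRNA export, was at 442, 328 and 253 CPM in sh-NC 1 to 3 and 416, 595 and 433 CPM in sh-IGF2BP3 1 to 3. Its level in sh-NC 1 was within the range of sh-IGF2BP3 and those in sh-NC 2 and 3 were below it, with a log2 fold change of 0.50 (SE 0.228, adjusted p = 0.217). SRSF7, its relative with a zinc knuckle, was at 189, 155 and 125 CPM in sh-NC 1 to 3 and 169.8, 211 and 185 CPM in sh-IGF2BP3 1 to 3, again with sh-NC 1 among the sh-IGF2BP3 libraries (log2 fold change 0.27, SE 0.198, adjusted p = 0.433). SRSF8, a retrocopy-derived relative of SRSF2, was at 72.2, 48.9 and 50.6 CPM in sh-NC 1 to 3 and 61.9, 81.2 and 70.2 CPM in sh-IGF2BP3 1 to 3 with the same overlap (log2 fold change 0.31, SE 0.202, adjusted p = 0.371).

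The 5 genes with 2 RRMs were less alike. SRSF9 (ENSG00000111786, chr12:120461672-120495946, minus strand), an SR protein with a short arginine-serine domain, was at 128, 89.8 and 77.7 CPM in sh-NC 1 to 3 and 169.8, 170.4 and 127 CPM in sh-IGF2BP3 1 to 3. The groups touched, since sh-IGF2BP3 3 and sh-NC 1 differed by under 1 CPM, and the log2 fold change of 0.66 (SE 0.215, adjusted p = 0.123) was the highest of the SRSF genes. Without sh-NC 1 the edgeR adjusted p of SRSF9 was 0.00849 and that of SRSF3 was 0.0323. Without sh-NC 3 they were 0.431 for SRSF9 and 0.601 for SRSF3. SRSF4, a large SR protein, was at 172, 133 and 110.3 CPM in sh-NC 1 to 3 and 149, 196 and 166 CPM in sh-IGF2BP3 1 to 3, with sh-NC 1 inside the range of sh-IGF2BP3 (log2 fold change 0.30, SE 0.203, adjusted p = 0.395). SRSF6 was at 295, 259 and 229.9 CPM in sh-NC 1 to 3 and 216, 282 and 288 CPM in sh-IGF2BP3 1 to 3, overlapping throughout (log2 fold change 0.0044, SE 0.193). SRSF5 was at 185, 182 and 201 CPM in sh-NC 1 to 3 and 196, 204 and 208 CPM in sh-IGF2BP3 1 to 3, within a narrow range (log2 fold change 0.097, SE 0.174).

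SRSF1, the prototype SR protein and a known oncogene, had 5 libraries close together and 1 apart. It was at 254, 243 and 235 CPM in sh-NC 1 to 3 and 139.6, 258 and 244 CPM in sh-IGF2BP3 1 to 3. The library sh-IGF2BP3 1 held the low level, and the other 2 lay within or just above sh-NC (log2 fold change −0.19, SE 0.222). Without sh-IGF2BP3 1 the log2 fold change was 0.047. The same library was also the lowest for SRSF6, SRSF10, SRSF11, HNRNPH1, HNRNPDL and HNRNPH2. With SRSF1 these are 7 of the 32 members (21.9%), against 25.5% of all genes tested, so the members do not stand out here.

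The SR-like pair, SRSF10 and SRSF11, had log2 fold changes below 0. SRSF11 (ENSG00000116754, chr1:70205682-70253052, plus strand) was at 284, 292 and 306 CPM in sh-NC 1 to 3 and 218, 256 and 279 CPM in sh-IGF2BP3 1 to 3. The 3 sh-IGF2BP3 levels all lay under the 3 sh-NC levels with a log2 fold change of −0.23 (SE 0.183, adjusted p = 0.475) and an exact permutation p of 0.1. SRSF10, which represses splicing when dephosphorylated, was at 285, 288 and 250.2 CPM in sh-NC 1 to 3 and 218, 274 and 287 CPM in sh-IGF2BP3 1 to 3, overlapping (log2 fold change −0.078, SE 0.187).

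**Figure D3:**
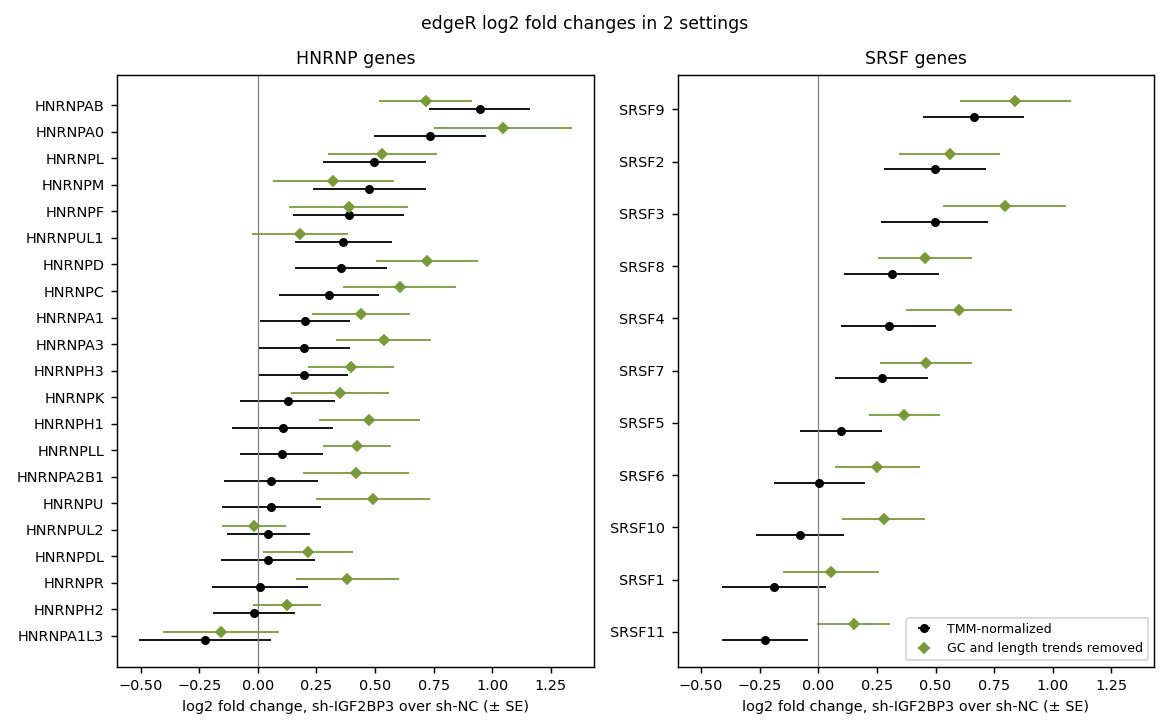
edgeR log2 fold change of sh-IGF2BP3 over sh-NC with its standard error for the 21 HNRNP genes (left) and 11 SRSF genes (right), after TMM normalization (black circles) and with the GC and length trends removed (green diamonds). The diamonds lie to the right of the circles for most members, and all 11 SRSF values are above 0 once the trends are removed.

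The log2 fold changes of all genes followed the GC content of their transcripts, and the members are poor in GC. The median GC content of the longest transcript was 42.3% over the HNRNP and 40.7% over the SRSF genes tested, against 48.7% over all genes tested. Across the 32 members, log2 fold change and GC content had a Pearson correlation of 0.42 and a Spearman correlation of 0.36, and across 16236 genes of 0.59 and 0.61. The points share the same 6 libraries, so these are descriptions. HNRNPUL1 (56.3% GC), HNRNPM (54.9%) and HNRNPAB (54.2%) were the richest in GC, and HNRNPR (35.3%), HNRNPD (36.1%) and HNRNPH1 (36.3%) the poorest. The trend of each library with GC content and gene length (the length behind the deposited FPKM) was then removed by splines fitted to its deviation from the mean of the 6 libraries, and the same test was run.

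With the trends removed, the median log2 fold change was 0.42 over the HNRNP genes and 0.45 over the SRSF genes, against 0.010 over all genes tested. The log2 fold change was above 0 for 19 of 21 HNRNP and 11 of 11 SRSF genes, beside 51.4% of all genes tested. Still 0 members were called, and the lowest adjusted p of a member was 0.415. At an unadjusted p under 0.05 in edgeR, 8 HNRNP and 7 SRSF genes were higher and none lower, against 6.86% of all genes tested higher and 3.59% lower. The groups did not overlap for 5 HNRNP (HNRNPAB, HNRNPD, HNRNPC, HNRNPA1 and HNRNPLL) and 2 SRSF genes (SRSF3 and SRSF5), all higher in sh-IGF2BP3, against 8.43% of all genes higher and 6.7% lower.

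Removing the trends moved single members unequally. HNRNPAB went from 0.95 to 0.72, HNRNPM to 0.32 and HNRNPUL1 to 0.18, all lower than before. HNRNPA0 went to 1.05, SRSF9 to 0.84, SRSF3 to 0.79, HNRNPD to 0.72 and HNRNPC to 0.60, all higher. The sign turned for 5 members, SRSF11 (−0.23 to 0.15), SRSF1 (−0.19 to 0.054), SRSF10 (−0.078 to 0.28), HNRNPH2 (−0.016 to 0.12) and HNRNPUL2 (0.044 to −0.017). For SRSF11 the groups then overlapped. The family medians per library kept sh-NC 1 near the sh-IGF2BP3 libraries, at 0.11, −0.21 and −0.57 in sh-NC 1 to 3 and 0.14, 0.40 and 0.075 in sh-IGF2BP3 1 to 3 over the HNRNP genes and at 0.15, −0.31 and −0.41 in sh-NC 1 to 3 and 0.20, 0.35 and 0.15 in sh-IGF2BP3 1 to 3 over the SRSF genes. Without sh-NC 1 and with the trends removed, 8 HNRNP genes (HNRNPAB, HNRNPA0, HNRNPL, HNRNPD, HNRNPF, HNRNPC, HNRNPA3 and HNRNPU) and 5 SRSF genes (SRSF9, SRSF3, SRSF8, SRSF4 and SRSF7) were called higher and none lower, beside 4.19% of 17379 genes higher and 1.04% lower.

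**Figure D4:**
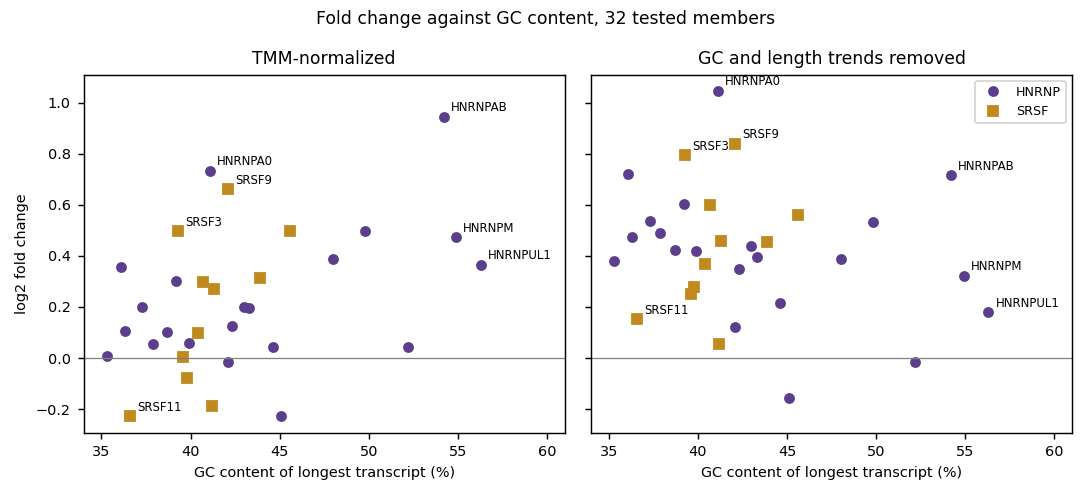
log2 fold change of the 32 tested members against the GC content of the longest transcript, in percent, after TMM normalization (left, Pearson 0.42) and with the GC and length trends removed (right, Pearson −0.21). Circles are HNRNP and squares SRSF genes, and most points move up once the trends are removed.

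Levels per gene length were compared by the deposited FPKM values, which divide the counts by one length for each gene. That length can exceed the longest transcript, as for HNRNPA2B1 (12610 against 6284 bases), so the order of genes depends on it. By counts over the 6 libraries HNRNPA2B1 was the highest member, at 194247 against 169452 for HNRNPA1. The highest levels were those of HNRNP genes. HNRNPA1 was the highest at 217 ± 9.83 FPKM in sh-NC and 237 ± 17.0 FPKM in sh-IGF2BP3 (SD, n = 3 libraries per group). It was followed by HNRNPF at 152 ± 42.5 FPKM in sh-NC and 191 ± 20.2 FPKM in sh-IGF2BP3, HNRNPK at 151, HNRNPAB at 144, HNRNPA2B1 at 138, HNRNPC at 129.7 and HNRNPH1 at 105 FPKM over the 6 libraries. From HNRNPF to HNRNPH1, the ranges of neighbours in this order overlapped over the 6 libraries. The level of HNRNPAB was 101 ± 17.4 FPKM in sh-NC and 186 ± 28.9 FPKM in sh-IGF2BP3. The lowest tested members were HNRNPUL2 (8.39 FPKM), HNRNPLL (8.02 FPKM) and HNRNPA1L3 (2.75 FPKM).

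Among the SRSF genes, SRSF2 was highest at 70.3 ± 5.59 FPKM in sh-NC and 94.2 ± 25.0 FPKM in sh-IGF2BP3 (SD, n = 3 each). Next were SRSF3 at 57.0, SRSF6 at 53.2, SRSF7 at 42.2, SRSF1 at 39.5 and SRSF5 at 36.5 FPKM, and the lowest tested were SRSF4 at 17.4 and SRSF8 at 14.8 FPKM. The ranges of all neighbours in the order of the 11 genes overlapped over the 6 libraries. SRSF12 had 7 counts in all 6 libraries, 6 of them in sh-NC 2 and 3 and 1 in sh-IGF2BP3 1. HNRNPA1L2 and the HNRNPC-like genes HNRNPCL1, HNRNPCL2, HNRNPCL3 and HNRNPCL4 had 0 counts in every library.

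**Figure D5:**
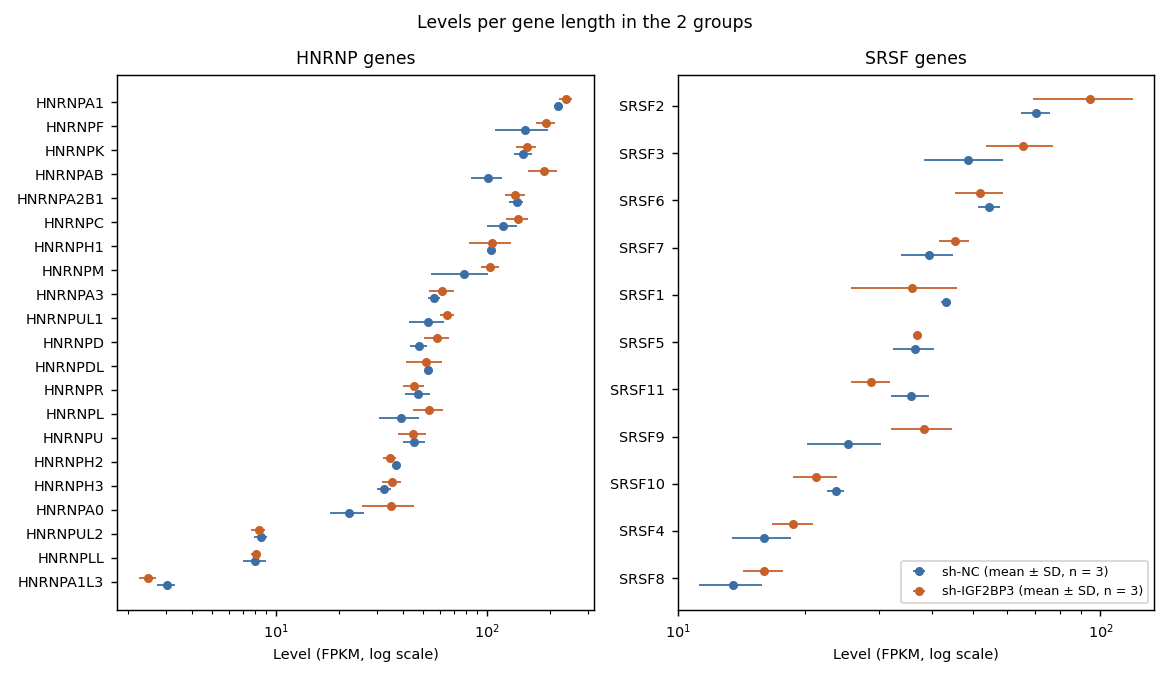
Level per gene length (FPKM, log scale) of the 21 HNRNP and 11 SRSF genes above 0.1 FPKM, as the mean and SD of the 3 sh-NC libraries (blue) and the 3 sh-IGF2BP3 libraries (orange). The families span from HNRNPA1 at 227 FPKM to HNRNPA1L3 at 2.75 FPKM, and HNRNPAB stands at 101 ± 17.4 FPKM in sh-NC and 186 ± 28.9 FPKM in sh-IGF2BP3.

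The share of a library's counts that fell on the 26 HNRNP genes was 1.16, 1.08 and 0.951% in sh-NC 1 to 3 and 1.08, 1.29 and 1.16% in sh-IGF2BP3 1 to 3. For the 12 SRSF genes it was 0.244, 0.227 and 0.222% in sh-NC 1 to 3 and 0.222, 0.276 and 0.243% in sh-IGF2BP3 1 to 3. The groups overlapped in both shares, with sh-NC 3 the lowest and sh-IGF2BP3 2 the highest for HNRNP. SRSF counts per 100 HNRNP counts were 21.0, 21.0 and 23.3 in sh-NC 1 to 3 and 20.5, 21.4 and 20.9 in sh-IGF2BP3 1 to 3, so the proportion between the families was highest in sh-NC 3 and differed little among the other 5 libraries.

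Some counts could hold reads of other genes, because neither the labels nor the paper say whether strand was used in counting. Of the 32 tested members, 9 overlapped another gene that had more than 1 count per 100 of the member's own. SRSF9 shares 76.1% of its span with DYNLL1 on the opposite strand, which had 62.2 counts per 100 of SRSF9, and also overlaps GATC and NRAV. HNRNPA3 overlaps NFE2L2 (40.4 per 100), HNRNPA2B1 overlaps CBX3 (19.1 per 100), HNRNPAB overlaps PHYKPL (13.3 per 100), SRSF2 overlaps MFSD11 (11.3 per 100) and HNRNPUL1 overlaps TGFB1 (10.5 per 100). Without strand, reads of such pairs cannot be told apart where they overlap. HNRNPA1 has 74 pseudogene entries in the table, and these held 2.78 to 3.14 counts per 100 of HNRNPA1. How reads that fit both were counted is not known.

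The kinases of SR proteins and the nuclear importins listed with them, of SR or hnRNP proteins, showed no member at an unadjusted p under 0.05 by edgeR. In this list of 12 genes (SRPK, CLK and DYRK kinases, PRPF4B and the transportins), 0 were called, and the median log2 fold change was −0.13, beside −0.014 over all genes. With the GC and length trends removed the median was 0.078, beside 0.010 over all genes, and still none had an unadjusted p under 0.05. The lowest p belonged to TNPO1, an importin of hnRNP proteins, at 334, 316 and 269 CPM in sh-NC 1 to 3 and 183, 239 and 287 CPM in sh-IGF2BP3 1 to 3 (log2 fold change −0.38, SE 0.204, adjusted p = 0.292), with sh-IGF2BP3 3 inside the range of sh-NC. CLK4, a kinase of SR proteins, had a log2 fold change of −0.46 (SE 0.294, adjusted p = 0.367) and TNPO2 of 0.30 (SE 0.208, adjusted p = 0.405), both with overlapping groups. With the trends removed the log2 fold change was 0.016 for TNPO1, −0.11 for CLK4 and 0.14 for TNPO2.

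Of 14 SR-related factors, 0 were called, and at an unadjusted p under 0.05 U2AF2 was higher and PNISR lower (median of the list 0.074). Over all genes tested 13.6% were higher and 8.54% lower. With the GC and length trends removed, 3 of the 14 were higher and 0 lower at that threshold, beside 6.86% and 3.59% of all genes. The median of the list was then 0.26. U2AF2, the large subunit of the factor that recognizes the polypyrimidine tract, was at 329, 206 and 153 CPM in sh-NC 1 to 3 and 412, 448 and 336 CPM in sh-IGF2BP3 1 to 3. Every sh-IGF2BP3 library was above every sh-NC library, with sh-IGF2BP3 3 next to sh-NC 1, at a log2 fold change of 0.80 (SE 0.248, adjusted p = 0.117). With the trends removed it was 0.38 (edgeR unadjusted p = 0.137) and the groups overlapped. The 3 factors higher in that setting were U2AF1, TRA2B and TRA2A. PNISR had −0.42 (SE 0.198, adjusted p = 0.223) with overlapping groups, and SREK1 −0.33 (SE 0.187, adjusted p = 0.307) with no overlap. With the trends removed their log2 fold changes were 0.0032 and 0.13.

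A list of 18 hnRNP proteins under other symbols (19 entries, because MATR3 has 2) held 8 entries higher and 1 lower at an unadjusted p under 0.05, none of them called, with a median log2 fold change of 0.19, beside 13.6% of all genes tested higher and 8.54% lower. DESeq2 called 1 of them, PCBP4, higher, beside 4.29% of its genes. The 8 higher entries include the MATR3 entry near the floor, at 0.207 to 2.36 CPM (log2 fold change 1.62). The more abundant MATR3 entry, at 8.41 to 20.5 CPM, had a log2 fold change of −0.48. PCBP1, which binds C-rich RNA, was at 12.4, 6.73 and 3.78 CPM in sh-NC 1 to 3 and 42.8, 32.0 and 9.43 CPM in sh-IGF2BP3 1 to 3. The spread within both groups was wide and sh-IGF2BP3 3 lay below sh-NC 1, with a log2 fold change of 1.89 (SE 0.457, adjusted p = 0.103). PCBP4 was at 34.9, 30.2 and 26.7 CPM in sh-NC 1 to 3 and 62.3, 50.6 and 40.3 CPM in sh-IGF2BP3 1 to 3 and RALY, a relative of HNRNPC, at 96.0, 86.3 and 69.7 CPM in sh-NC 1 to 3 and 131, 131 and 109.5 CPM in sh-IGF2BP3 1 to 3. Both were without overlap between the groups, with log2 fold changes of 0.74 (SE 0.207, adjusted p = 0.104) and 0.56 (SE 0.188, adjusted p = 0.127). With the trends removed the log2 fold change was 1.58 for PCBP1, 0.30 for PCBP4 and 0.48 for RALY. In that setting 6 entries of the list were higher at an unadjusted p under 0.05 and none lower, beside 6.86% of all genes higher and 3.59% lower. The MATR3 entry near the floor was again among those higher.

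Nonsense-mediated decay, which many HNRNP and SRSF transcripts feed into, was represented by 14 genes. Of these 0 were called, and the median log2 fold change was 0.11. At an unadjusted p under 0.05, 2 were higher and 1 lower, beside 13.6% of all genes tested higher and 8.54% lower. With the GC and length trends removed, 2 were higher and 0 lower at that threshold, beside 6.86% and 3.59% of all genes. SMG1, the kinase that phosphorylates UPF1, was at 433, 443 and 538 CPM in sh-NC 1 to 3 and 266, 324 and 420.0 CPM in sh-IGF2BP3 1 to 3. All sh-IGF2BP3 libraries lay below all sh-NC libraries (log2 fold change −0.48, SE 0.207, adjusted p = 0.189), but with the trends removed the value was −0.10 and the groups overlapped. MAGOH, a part of the exon junction complex, had a log2 fold change of 0.61 (SE 0.277, adjusted p = 0.213) with overlapping groups, and SMG9, a partner of SMG1, of 0.39 (SE 0.184, adjusted p = 0.225) with none.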

How the data were processed

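The data were RNA-seq libraries of HCT116 cells, 3 sh-NC and 3 sh-IGF2BP3, made from total RNA with a TruSeq kit. The authors deposited raw counts per gene for 62710 Ensembl genes, and FPKM values that the authors computed from the same counts. GRCh38 and CASAVA stand in the submitters' processing notes. The aligner, the counting tool and the use of strand are not given in the sources used here, nor the treatment of reads that match more than 1 gene.

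The counts were tested with edgeR 4.0.16 in R 4.3.3 (filterByExpr, TMM, quasi-likelihood test with Benjamini-Hochberg adjustment over all genes tested). The thresholds (fold change above 1.5, adjusted p under 0.05) are those of the paper's methods. CPM values use the TMM factors, and the median deviations a prior count of 2. GC content and transcripts came from GENCODE 29 (GRCh38), and gene positions from the annotation in the deposited count table. Gene length came from the ratio of counts to FPKM, with GC and length known for 96.9% of the genes tested. Trends were splines with 5 degrees of freedom. Alternatives were DESeq2 1.42.0, RLE and upper-quartile normalization, no filter, at least 10 counts in every library, a replicate block, each library left out, and limma 3.58.1 on log2(FPKM + 1) or log2(FPKM + 0.1) above a mean FPKM of 1, or with no filter. DESeq2 with the trends as normalization factors was added after seeing the data. The test was tested on simulated data with known fold changes.

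The members and the gene lists were chosen with earlier results of these data known, so no test was run over a list. Library values are given for the 5 members of each family with the smallest p, the 3 with the highest FPKM, the 2 nearest to no change, those called in any setting and those whose fold change turned sign without the trends. Of each list the 3 genes with the smallest p are named. Other members are described to account for all. Depth was 16146718 to 23576469 counts a library, and single-gene permutation tests were exact and two-sided. The protein sequences of the members were not analysed here.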

Additional observations from a re-analysis of the deposited data

Results flagged for a closer look

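Among the 139 entries with HNRNP or SRSF names that were left out of the members, 29 had at least 10 counts in all. Of these 29, 2 had more counts relative to the library total in each sh-IGF2BP3 library than in any sh-NC library. By the same measure, 6 had fewer in each sh-IGF2BP3 library than in any sh-NC library. Over all genes with at least 10 counts these shares were 8.82% higher and 11.9% lower. The pseudogene HNRNPA1P7 had 1834 counts in sh-IGF2BP3 and 1739 in sh-NC, with 547, 704 and 488 counts in sh-NC 1 to 3 and 590, 655 and 589 counts in sh-IGF2BP3 1 to 3. HNRNPD-DT, a transcript divergent from HNRNPD, had 15 and 5 counts, with 3, 2 and 0 counts in sh-NC 1 to 3 and 5, 5 and 5 counts in sh-IGF2BP3 1 to 3. The 6 lower entries were the pseudogenes HNRNPA1P14, HNRNPA1P33, HNRNPA1P36, HNRNPA3P3, HNRNPA3P9 and HNRNPKP4. The most abundant of them, HNRNPKP4, had 104, 156 and 89 counts in sh-NC 1 to 3 and 56, 58 and 86 counts in sh-IGF2BP3 1 to 3. None of these differences was tested, and library totals were not adjusted for in these sums.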

How the results depend on the processing

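Over the 21 HNRNP and 11 SRSF genes tested and 24 alternatives, 655 of 768 log2 fold changes kept their direction and side of the thresholds, 24 passed the thresholds and 89 changed sign. Those that changed sign belonged to 13 members. Over all genes tested, DESeq2 called 562 higher and 137 lower, edgeR with no filter 687 and 150, RLE normalization 1 higher, at least 10 counts in every library 1 higher, limma on log2(FPKM + 1) 1 lower, and leaving out a library 0 to 1739 higher and 0 to 985 lower, the highest without sh-NC 1. DESeq2 with the GC and length trends removed, chosen after seeing the data, called 65 higher and 8 lower. HNRNP genes called higher were 1 by DESeq2, 2 with no filter, 1 (HNRNPA0) by DESeq2 with the trends removed and 0 to 8 with a library left out, and SRSF genes 0 to 5 with a library left out, in both the highest without sh-NC 1 and with the trends removed. The HNRNP median was 0.42 with the trends removed (0.42 by DESeq2), and leaving out a library gave 0.068 to 0.62 over HNRNP and 0.12 to 0.71 over SRSF genes. By limma on log2(FPKM + 1) the medians were 0.12 and 0.20. No cause was tested.

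The paper speaks of pairs of control and knockdown cells but does not tie the replicate numbers to them. The deviations of same-numbered libraries correlated at −0.28, −0.19 and −0.043, so the numbers were not taken as a pairing. With the number as a replicate block, 0 members were called, and the medians were 0.19 and 0.29. At an unadjusted p under 0.05, 4 HNRNP and 2 SRSF genes were higher, beside 2105 of 16753 genes higher and 1160 lower. With the block and the trends removed the HNRNP median was 0.44.

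The changed signs are log2 fold changes. Upper-quartile normalization gave −0.015 for HNRNPUL2, −0.018 for HNRNPDL, −0.046 for HNRNPR and −0.053 for SRSF6, and −4.25e-04 for HNRNPA2B1. With at least 10 counts in every library HNRNPR was at −0.012 and SRSF6 at −0.016. By limma on log2(FPKM + 1), with the filter or without, the values were −0.0012 for HNRNPH1, −0.020 for HNRNPA2B1, −0.019 for HNRNPU, −0.031 for HNRNPUL2, −0.054 for HNRNPDL, −0.056 for HNRNPR and −0.075 for SRSF6. On log2(FPKM + 0.1) they were −0.0014 for HNRNPH1, −0.020 for HNRNPA2B1, −0.020 for HNRNPU, −0.035 for HNRNPUL2, −0.056 for HNRNPDL, −0.057 for HNRNPR and −0.076 for SRSF6. With the trends removed, with the block added, and by DESeq2 with the trends removed, the values were in turn −0.017, −0.019 and −0.017 for HNRNPUL2, 0.12, 0.13 and 0.13 for HNRNPH2, 0.15, 0.15 and 0.15 for SRSF11, 0.054, 0.031 and 0.057 for SRSF1 and 0.28, 0.29 and 0.28 for SRSF10. Leaving out a library, with and without the trends, gave −0.36 to 0.018 for HNRNPA1L3, −0.0054 to 0.56 for HNRNPK, −0.016 to 0.68 for HNRNPH1, −0.066 to 0.62 for HNRNPA2B1, −0.090 to 0.80 for HNRNPU, −0.078 to 0.091 for HNRNPUL2, −0.11 to 0.36 for HNRNPDL, −0.090 to 0.24 for HNRNPH2, −0.16 to 0.65 for HNRNPR, −0.32 to 0.24 for SRSF11, −0.34 to 0.25 for SRSF1, −0.17 to 0.43 for SRSF10 and −0.10 to 0.44 for SRSF6. Genes with few counts, such as SRSF12 and HNRNPA1L3, are limited by depth.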

Other observations

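Pseudogenes of single members were set against their parent genes after their values were seen, without a test. Counts of the 5 HNRNPK pseudogenes per 100 counts of HNRNPK were 0.605, 0.811 and 0.666 in sh-NC 1 to 3 and 0.438, 0.398 and 0.507 in sh-IGF2BP3 1 to 3, with every sh-IGF2BP3 library below every sh-NC library. For the 16 HNRNPA3 pseudogenes they were 1.49, 1.43 and 1.60 in sh-NC 1 to 3 and 0.945, 1.14 and 1.38 in sh-IGF2BP3 1 to 3, again without overlap. Both ratios include counts of the lower entries HNRNPKP4, HNRNPA3P3 and HNRNPA3P9 named above, so they are not a separate observation. How often such ratios separate the groups over all genes was not computed. The 74 HNRNPA1 pseudogenes showed no such gap, at 2.78, 2.86 and 3.14 in sh-NC 1 to 3 and 2.92, 2.97 and 2.96 in sh-IGF2BP3 1 to 3 per 100 counts of HNRNPA1, and neither did the 9 HNRNPC pseudogenes, at 0.924, 0.813 and 0.834 in sh-NC 1 to 3 and 0.869, 0.930 and 0.824 in sh-IGF2BP3 1 to 3.

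Ratios between paralogs varied by library. Counts of HNRNPLL per 100 of HNRNPL were 13.8, 17.6 and 27.2 in sh-NC 1 to 3 and 12.2, 14.6 and 15.4 in sh-IGF2BP3 1 to 3, highest in sh-NC 3. Counts of HNRNPH2 per 100 of HNRNPH1 were 8.46, 8.74 and 8.63 in sh-NC 1 to 3 and 10.2, 7.66 and 6.71 in sh-IGF2BP3 1 to 3, with the highest and the lowest value both in sh-IGF2BP3. Counts of SRSF5 per 100 of SRSF6 were 62.7, 70.3 and 87.3 in sh-NC 1 to 3 and 90.5, 72.2 and 72.2 in sh-IGF2BP3 1 to 3, and the groups overlapped. Counts of HNRNPA1L3 per 100 of HNRNPA1 were 0.430, 0.390 and 0.381 in sh-NC 1 to 3 and 0.330, 0.250 and 0.325 in sh-IGF2BP3 1 to 3, with every sh-IGF2BP3 library below every sh-NC library. This difference was not tested, and no share over all genes was computed for such ratios.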
